A study of Mus musculus with 12 samples.

Results

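The genes described here are the pumps and exchangers that remove calcium from the cytosol of mouse brain cells: Atp2a2, Atp2a3, Atp2b1, Atp2b2, Atp2b3, Atp2b4, Slc8a1, Slc8a2, Slc8a3 and Slc24a2. They were taken by symbol, as the 10 genes of 54446 in the count tables whose Ensembl identifier carries one of these names. The list was drawn up by family with earlier results of these counts known, among them the Slc8a1 difference between genotypes in the hippocampus and the levels in both tissues. The adjusted p-values come from fits of all genes, so they describe these genes and are no independent support for having picked them.

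The 4 groups were the cerebellum of Syt14 knockout (Syt14-/-) mice, the cerebellum of wild-type (Syt14+/+) mice, the hippocampus of the knockout mice and the hippocampus of the wild-type mice, with 3 libraries each. Per the animal numbers in the labels, 3 knockout and 3 wild-type mice gave both tissues, so replicates within a group are separate animals. Syt14 encodes a synaptotagmin, a family of membrane-trafficking proteins. The labels do not state strain, age, sex or the altered stretch of Syt14, no treatment is named, and poly(A) RNA of whole tissue was sequenced with strand-specific libraries.

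Calcium carries signals in neurons only because its resting level in the cytosol is kept very low. SERCA pumps (Atp2a genes) use ATP to move calcium into the endoplasmic reticulum, PMCA pumps (Atp2b genes) use ATP to push it out of the cell, and sodium-calcium exchangers (NCX, Slc8a genes) trade it for sodium flowing in. NCKX exchangers such as Slc24a2 also carry potassium out with the calcium. Purkinje cells, the output neurons of the cerebellar cortex, have heavy calcium entry at their dendrites and are known for strong expression of several of these genes.

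Library totals were 24355572 to 34971359 counts, and each of the 10 genes had between 209 and 51366 counts in every library. Levels are given as CPM, counts scaled to library size by TMM factors, which correct for differences in library composition. In plain CPM, without these factors, Syt14 was at 31.6 to 32.7 in knockout cerebellum, against 35.0 to 39.5 in wild-type cerebellum, and at 26.8 to 29.1 in knockout hippocampus, against 35.9 to 37.3 in wild-type hippocampus. Transcripts of the targeted gene were therefore still counted in every knockout library. The tissue labels were checked against marker genes. A sum over 10 markers of cerebellar granule cells was 5648 to 6791 CPM in the cerebellum and 224 to 288 CPM in the hippocampus, and Gabra6 was at 0 in knockout hippocampus. A sum over 10 markers of hippocampal neurons was 218 to 326 CPM in the cerebellum and 6440 to 6917 CPM in the hippocampus. Column names carry the token L4 in all cerebellum libraries and L1 in all hippocampus libraries. Its meaning is not given, and whatever it stands for cannot be told apart from tissue. The third knockout cerebellum library stood apart: 7 choroid plexus markers summed to 25.8 CPM there, against 973 to 2679 CPM in the other 5 cerebellum libraries, and all 7 had genotype fold changes below 0 in the cerebellum.

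The tissues differed in every one of the 10 genes. Atp2a3, Slc8a3, Atp2b2, Atp2b3 and Atp2a2 were higher in the cerebellum, and Atp2b1, Atp2b4, Slc8a2, Slc8a1 and Slc24a2 were lower there, with the same direction in both genotypes. All 10 passed an adjusted p of 0.05 (edgeR quasi-likelihood test, Benjamini-Hochberg adjustment over all genes) in knockout and in wild-type mice, and in none did the libraries of the tissues overlap. That count is read against the background: 64.1% of 18200 genes tested in knockout mice and 66.1% of 18128 in wild-type mice passed. Genes called higher in the cerebellum were 32.5% in knockout and 33.0% in wild-type mice, and genes called lower 31.6% and 33.1%, where 5 of the 10 genes went each way. Ranges that did not overlap were found in 70.3% of genes in knockout mice and 70.7% in wild-type mice. In whole tissue, fewer cells of a type and less RNA per cell cannot be told apart.

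Of the SERCA pumps, Atp2a3 showed the largest tissue difference of the 10 genes. It encodes SERCA3 (ENSMUSG00000020788, chr11:72961169-72993044, plus strand, GRCm38). Its level was 274, 315 and 376 CPM in knockout cerebellum and 284, 275 and 327 CPM in wild-type cerebellum. In the hippocampus it was 8.81, 8.77 and 7.19 CPM in knockout and 8.53, 8.81 and 11.1 CPM in wild-type mice. Every cerebellum library was thus more than an order of magnitude above every hippocampus library. The log2 fold change, cerebellum over hippocampus, was 5.29 ± 0.14 (SE; 39.2-fold, adjusted p = 2.35e-09, edgeR) in knockout mice and 4.96 ± 0.10 (31.1-fold, adjusted p = 1.47e-13) in wild-type mice. A change at least as large as that of Atp2a3 was found in 1.54% of genes in knockout mice and 2.33% in wild-type mice.

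Atp2a2 encodes SERCA2, the widely expressed endoplasmic reticulum pump (ENSMUSG00000029467, chr5:122453513-122502225, minus strand). It had 1322, 1322 and 1477 CPM in knockout cerebellum and 1462, 1315 and 1560.3 CPM in wild-type cerebellum. In the hippocampus it had 997, 1113 and 1054 CPM in knockout and 1079.8, 1069.5 and 1061 CPM in wild-type mice. The tissues did not overlap, but the difference was the smallest of the 10: a log2 fold change of 0.39 ± 0.06 (SE; adjusted p = 0.000365, edgeR) in knockout and 0.43 ± 0.06 (adjusted p = 3.21e-05) in wild-type mice.

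The PMCA pumps split by tissue. Atp2b1 encodes PMCA1, the broadly expressed form (ENSMUSG00000019943, chr10:98914406-99026143, plus strand). It had 286, 282.6 and 275 CPM in knockout cerebellum and 294, 271 and 292 CPM in wild-type cerebellum, against 1330.2, 1287 and 1237 CPM in knockout hippocampus and 1260.2, 1288 and 1280.3 CPM in wild-type hippocampus. The groups of 1 tissue lay on top of each other and the tissues were far apart. It was 4.55-fold lower in the cerebellum of knockout mice (log2 fold change -2.19 ± 0.05 SE, adjusted p = 1.44e-09, edgeR) and 4.48-fold lower in that of wild-type mice (-2.16 ± 0.05, adjusted p = 6.14e-13). Atp2b4 encodes PMCA4 (ENSMUSG00000026463, chr1:133699457-133801041, minus strand). It had 64.8, 50.5 and 49.3 CPM in knockout cerebellum and 62.6, 60.7 and 58.7 CPM in wild-type cerebellum, against 159.8, 139 and 169 CPM in knockout hippocampus and 149, 151 and 168 CPM in wild-type hippocampus. All 6 cerebellum libraries were below all 6 hippocampus libraries, with a log2 fold change of -1.501 ± 0.11 in knockout and -1.37 ± 0.06 in wild-type mice (adjusted p = 1.61e-06 and 1.81e-10, edgeR).

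Atp2b2 and Atp2b3 encode PMCA2 and PMCA3, the forms with the most restricted expression, prominent in neurons, and they ran the other way. Atp2b2 (ENSMUSG00000030302, chr6:113743831-114042613, minus strand) had 809, 790.5 and 953 CPM in knockout cerebellum and 876, 785 and 971 CPM in wild-type cerebellum. Its hippocampus values were 454, 479 and 514 CPM in knockout and 486, 485 and 493 CPM in wild-type mice. Every cerebellum library was above every hippocampus library, by 1.77-fold in knockout mice (log2 0.82 ± 0.08 SE, adjusted p = 9.93e-06, edgeR) and 1.79-fold in wild-type mice (0.84 ± 0.07, adjusted p = 1.48e-07). Atp2b3 (ENSMUSG00000031376, chrX:73503086-73571005, plus strand) had 316, 321 and 338 CPM in knockout cerebellum and 398, 363 and 387 CPM in wild-type cerebellum. In the hippocampus it had 240.04, 237 and 210.2 CPM in knockout and 239.99, 238 and 222 CPM in wild-type mice. The tissues did not overlap in either genotype, and the log2 fold change was 0.51 ± 0.06 in knockout and 0.71 ± 0.05 in wild-type mice (adjusted p = 6.75e-05 and 6.13e-08, edgeR).

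Of the exchangers, Slc8a3 was the 1 gene higher in the cerebellum. It encodes NCX3 (ENSMUSG00000079055, chr12:81197915-81333180, minus strand). Its level was 43.0, 38.9 and 40.8 CPM in knockout cerebellum and 42.9, 44.0 and 49.1 CPM in wild-type cerebellum. Hippocampus values were 19.2, 25.9 and 28.1 CPM in knockout and 26.6, 21.4 and 26.3 CPM in wild-type mice. Knockout hippocampus was the most scattered of these groups, and the tissues still did not overlap. The log2 fold change was 0.74 ± 0.12 (SE; 1.68-fold, adjusted p = 0.000426, edgeR) in knockout and 0.87 ± 0.09 (1.83-fold, adjusted p = 1.29e-06) in wild-type mice.

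Slc8a2 encodes NCX2, an exchanger found mainly in the brain (ENSMUSG00000030376, chr7:16129826-16161063, plus strand). It had 167, 153 and 181 CPM in knockout cerebellum and 201, 182 and 182 CPM in wild-type cerebellum. In the hippocampus it had 502, 451 and 446 CPM in knockout and 471, 455 and 452 CPM in wild-type mice. Cerebellum libraries were all below hippocampus libraries, with a log2 fold change of -1.48 ± 0.07 in knockout (2.78-fold lower, adjusted p = 1.07e-07, edgeR) and -1.29 ± 0.05 in wild-type mice (2.44-fold lower, adjusted p = 1.40e-10). Slc8a1 encodes NCX1, the form that dominates in heart muscle (ENSMUSG00000054640, chr17:81373105-81738377, minus strand). It was the exchanger with the lowest counts per length, at 18.8, 20.2 and 22.7 CPM in knockout cerebellum and 26.1, 18.2 and 29.8 CPM in wild-type cerebellum. Hippocampus values were 46.2, 45.7 and 46.7 CPM in knockout and 58.2, 50.9 and 60.8 CPM in wild-type mice. Wild-type cerebellum scattered widely and all its libraries were still below the hippocampus. The log2 fold change was -1.16 ± 0.08 in knockout and -1.21 ± 0.14 in wild-type mice (adjusted p = 7.44e-07 and 4.92e-06, edgeR).

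Slc24a2 encodes NCKX2, a potassium-dependent exchanger of neurons (ENSMUSG00000037996, chr4:86983124-87230477, minus strand). It had 411, 434 and 435 CPM in knockout cerebellum and 431, 383 and 490.2 CPM in wild-type cerebellum, against 871, 904 and 907 CPM in knockout hippocampus and 948, 938 and 984 CPM in wild-type hippocampus. The level in the cerebellum was 2.09-fold lower in knockout mice (log2 -1.06 ± 0.05 SE, adjusted p = 5.70e-08, edgeR) and 2.21-fold lower in wild-type mice (-1.14 ± 0.07, adjusted p = 1.97e-08).

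**Figure D1:**
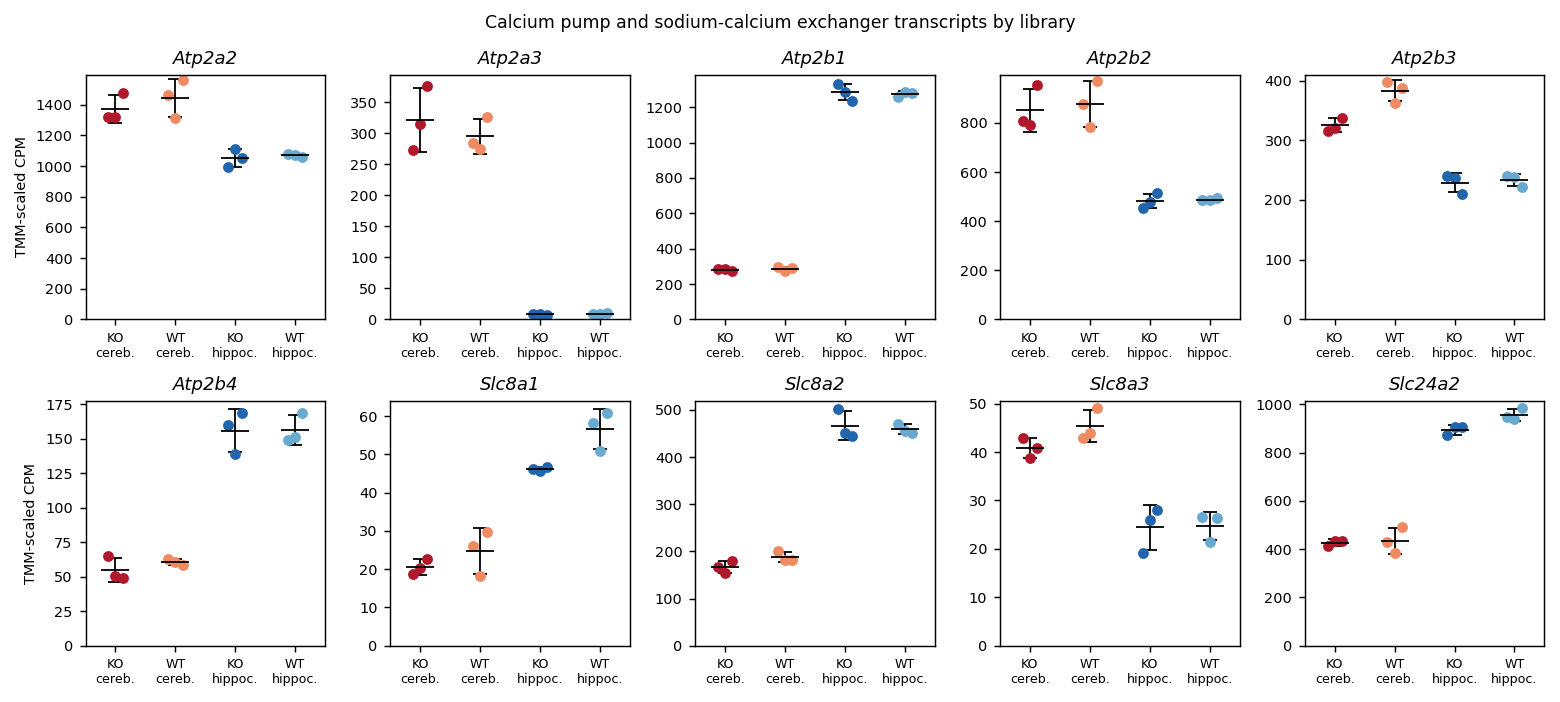
Level of each gene (TMM-scaled CPM, linear axis from 0) in the 12 libraries, by group. Dots are single animals, and the bar and whiskers are the mean and SD of 3. Atp2a3 lay at 274 to 376 CPM in all cerebellum libraries and at 7.19 to 11.1 CPM in all hippocampus libraries, and Atp2b1 lay the other way round.

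**Figure D2:**
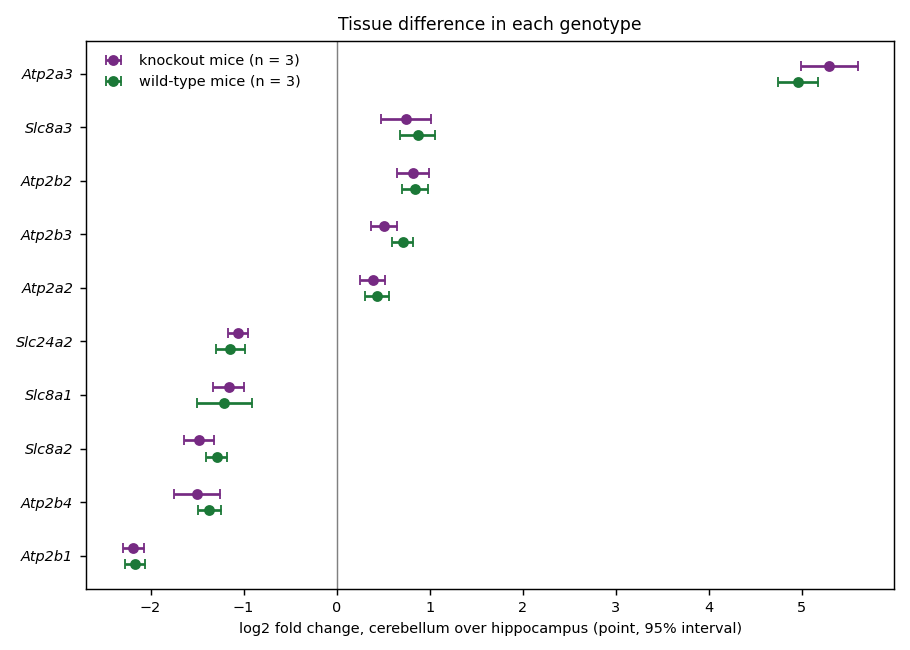
Log2 fold change of each gene, cerebellum over hippocampus, with its 95% interval, in knockout and wild-type mice. The genes run from Atp2a3 at 5.29 in knockout and 4.96 in wild-type mice to Atp2b1 at -2.19 and -2.16, and no interval reaches 0.

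The stretches around the transcription starts are shown for the members at the ends of that tissue order, to set what is known of their sequence beside their levels. RefSeq (GRCm38.p6) gave windows of 300 bases, 250 before and 50 after a start, for 8 of the 10 genes. The pair with the highest and the pair with the lowest tissue fold in wild-type mice among those 8 are printed, 5′ to 3′ on the gene's own strand. Capitals mark letters that match a searched motif on either strand. Atp2a3 lies at chr11:72960919-72961218 (plus strand), Slc8a3 at chr12:81333131-81333430 (minus strand), Atp2b1 at chr10:98914392-98914691 (plus strand) and Atp2b4 at chr1:133753698-133753997 (minus strand). The Atp2b4 window is at a RefSeq start well inside the gene as annotated in GENCODE, unlike the other 3, which lie at the gene's 5′ end.
Atp2a3: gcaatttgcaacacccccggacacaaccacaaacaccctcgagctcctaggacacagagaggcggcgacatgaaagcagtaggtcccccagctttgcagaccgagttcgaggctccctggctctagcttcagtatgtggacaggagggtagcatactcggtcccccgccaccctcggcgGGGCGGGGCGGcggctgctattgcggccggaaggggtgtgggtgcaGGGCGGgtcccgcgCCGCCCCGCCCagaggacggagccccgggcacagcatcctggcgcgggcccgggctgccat
Slc8a3: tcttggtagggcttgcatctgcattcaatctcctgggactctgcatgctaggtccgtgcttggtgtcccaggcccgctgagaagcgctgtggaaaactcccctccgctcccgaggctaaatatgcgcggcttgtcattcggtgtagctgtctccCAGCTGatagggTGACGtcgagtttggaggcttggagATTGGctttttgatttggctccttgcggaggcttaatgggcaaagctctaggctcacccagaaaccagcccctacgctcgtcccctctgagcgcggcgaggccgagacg
Atp2b1: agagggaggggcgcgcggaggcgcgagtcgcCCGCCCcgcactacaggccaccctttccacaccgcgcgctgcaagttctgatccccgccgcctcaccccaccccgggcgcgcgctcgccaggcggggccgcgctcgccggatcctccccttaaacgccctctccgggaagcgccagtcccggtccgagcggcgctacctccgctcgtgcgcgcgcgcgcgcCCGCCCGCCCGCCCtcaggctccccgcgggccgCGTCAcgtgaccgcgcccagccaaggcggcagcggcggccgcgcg
Atp2b4: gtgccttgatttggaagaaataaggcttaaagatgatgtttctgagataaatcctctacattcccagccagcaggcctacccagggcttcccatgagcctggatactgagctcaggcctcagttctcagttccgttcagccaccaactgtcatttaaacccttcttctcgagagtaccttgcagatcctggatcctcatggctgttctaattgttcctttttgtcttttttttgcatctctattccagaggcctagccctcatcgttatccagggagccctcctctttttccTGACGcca

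Atp2a3 and Atp2b1, at opposite ends of the tissue order, both had GC-rich windows, with 68.3% GC and 25 CpG in Atp2a3 and 79.3% GC and 54 CpG in Atp2b1. Slc8a3 had 58.3% GC and 18 CpG, and Atp2b4, at its internal start, 47.7% GC and 4 CpG. The median over the 8 windows was 60.6% GC, and over all 32851 windows it was 52.7%. Motifs were searched on both strands, and a match describes the letters only. The GC box (GGGCGG) occurred in 4 of 8 windows, 5 times in Atp2a3, where matches overlap, and 4 times in Atp2b1, and in 35.7% of all windows. The CRE half-site (TGACG) occurred in 3 of 8, namely Atp2b1, Atp2b4 and Slc8a3, and in 20.8% of all windows. The E-box CAGCTG occurred in Slc8a3 alone of the 8 and in 16.3% of all windows, and the CCAAT box (CCAAT) in 2 of 8, Slc8a2 and Slc8a3, and in 37.4%. The letters AGGTCA (16.3% of all windows), TGACGTCA (1.79%), which contains the half-site, and TATAAA (13.6%) were in none of the 8 windows.

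Levels of different genes were compared per length, as RPKM, CPM per kilobase of the gene's exons, in each of the 4 groups. Atp2a2 was the highest in all of them, at 226 ± 14.7 RPKM in knockout cerebellum, 238 ± 20.3 in wild-type cerebellum, 173 ± 9.58 in knockout hippocampus and 176 ± 1.57 in wild-type hippocampus (SD, n = 3 each). In knockout cerebellum it was followed by Atp2b2 (67.5 ± 7.06 RPKM), Atp2b3 (67.4 ± 2.41) and Atp2a3 (60.9 ± 9.78), where neighbouring ranges overlapped. In wild-type cerebellum it was followed by Atp2b3 (79.4 ± 3.69 RPKM), Atp2b2 (69.6 ± 7.40) and Atp2a3 (55.9 ± 5.26), of which the first pair overlapped. Slc24a2 and Slc8a2 came next and overlapped in both genotypes, at 34.9 and 31.7 RPKM in knockout and 35.6 and 35.8 RPKM in wild-type cerebellum. Atp2b1, Slc8a3, Atp2b4 and Slc8a1 closed the order there, each apart from its neighbour. In knockout hippocampus Slc8a2 (88.6 ± 5.90 RPKM) and Atp2b1 (84.4 ± 3.07) overlapped behind Atp2a2, and in wild-type hippocampus Slc8a2 (87.3 ± 1.94 RPKM) and Atp2b1 (83.9 ± 0.945) did not. Below them both hippocampus groups had the order Slc24a2, Atp2b3, Atp2b2, Atp2b4, Slc8a3, Slc8a1 and Atp2a3, without overlap between neighbours. Atp2a3 was last in the hippocampus, at 1.56 ± 0.174 RPKM in knockout and 1.79 ± 0.266 in wild-type mice.

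These RPKM values, and the order of some genes, depend on which length is used. The exons of Atp2b1 cover 15218 bases, but its longest annotated transcript has 7130. With the longest transcript, Atp2b1 reached 179 RPKM in wild-type hippocampus and 40.05 RPKM in wild-type cerebellum. It then ranked 2nd in both hippocampus groups, with Slc8a2 3rd in knockout and 4th, behind Slc24a2, in wild-type mice. Atp2b2 (5th) was then ahead of Atp2b3 (6th) in both hippocampus groups. In both cerebellum groups Atp2b1 (6th) was then ahead of Slc8a2 (7th).

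Within families, the shares of the paralogs in the summed RPKM differed between tissues, while Atp2a2 held most of the SERCA sum and Slc8a2 most of the NCX sum in all 4 groups. Of the SERCA sum, Atp2a3 made up 21.2 ± 1.75% in knockout cerebellum and 19.0 ± 0.641% in wild-type cerebellum, against 0.895 ± 0.114% in knockout hippocampus and 1.01 ± 0.157% in wild-type hippocampus. Of the PMCA sum, Atp2b1 made up 11.7 ± 0.847% in knockout and 10.9 ± 0.268% in wild-type cerebellum, against 46.1 ± 0.813% in knockout and 45.7 ± 0.419% in wild-type hippocampus. Atp2b2 and Atp2b3 together therefore carried most of the PMCA sum in the cerebellum, with 42.7 ± 2.07% and 42.8 ± 1.02% in knockout and 40.2 ± 1.97% and 46.0 ± 1.5% in wild-type mice. With the longest transcript as length, Atp2b1 held 18.8% in knockout and 17.7% in wild-type cerebellum, against 60.6% in knockout and 60.1% in wild-type hippocampus. With that length Atp2b2 was ahead of Atp2b3 in wild-type cerebellum, at 43.5% against 36.5%, so the order of this pair changed with the length used. Slc8a2 held 78.3 ± 1.01% of the NCX sum in knockout cerebellum, 78.5 ± 2.03% in wild-type cerebellum, 92.6 ± 1.26% in knockout hippocampus and 91.9 ± 0.771% in wild-type hippocampus. Slc8a3 held 19.0 ± 1.10% in knockout cerebellum and 18.7 ± 1.71% in wild-type cerebellum, against 4.83 ± 1.12% in knockout hippocampus and 4.89 ± 0.513% in wild-type hippocampus.

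The summed levels differed between tissues to unequal extents. Summed PMCA RPKM was 158 ± 8.65 in knockout cerebellum, 173 ± 11.0 in wild-type cerebellum, 182.9 ± 3.45 in knockout hippocampus and 183.7 ± 1.02 in wild-type hippocampus. These sums use the exon length, and the closeness of the PMCA sums depends on it. With the longest transcript, Atp2b1 alone reached 179 RPKM in wild-type hippocampus against 40.05 RPKM in wild-type cerebellum. The PMCA sums of the tissues then lie further apart. The SERCA sum was 287 ± 24.0 in knockout and 294 ± 25.1 in wild-type cerebellum, against 175 ± 9.55 in knockout and 178 ± 1.36 in wild-type hippocampus. The NCX sum ran the other way, at 40.5 ± 2.84 in knockout and 45.6 ± 1.98 in wild-type cerebellum, against 95.7 ± 5.06 in knockout and 94.9 ± 2.30 in wild-type hippocampus.

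**Figure D3:**
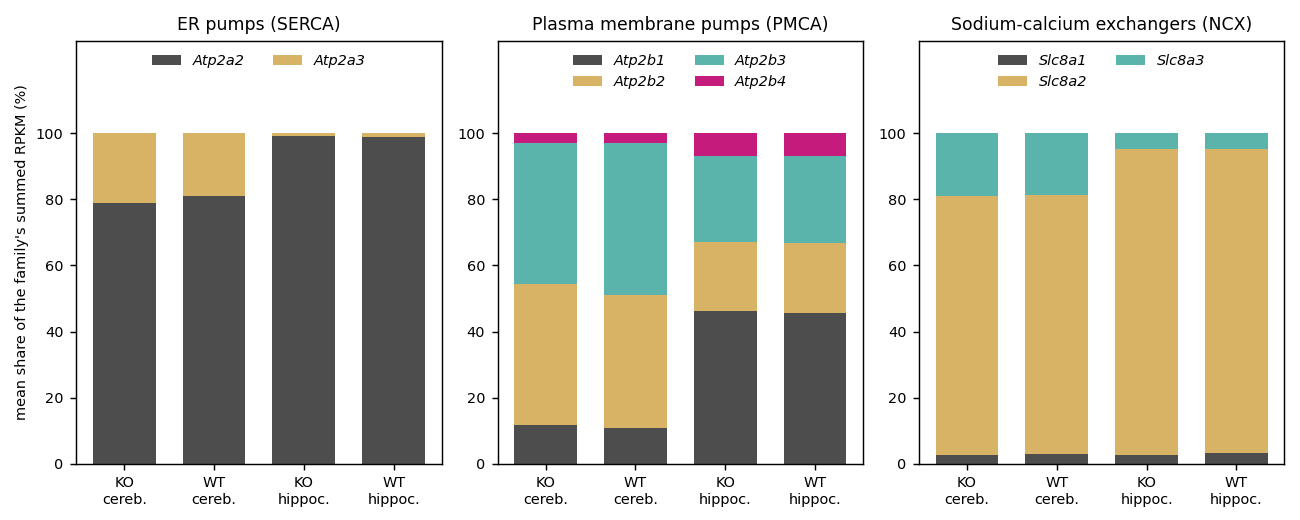
Mean share of each paralog in the summed RPKM of its family (percent, n = 3 per group) for the SERCA, PMCA and NCX genes. Atp2a3 takes 21.2% and 19.0% of SERCA in the knockout and wild-type cerebellum, and Atp2b1 takes 46.1% and 45.7% of PMCA in the knockout and wild-type hippocampus.

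Between genotypes in the cerebellum, none of the 10 genes passed the adjusted threshold, and Atp2b3 came closest. Atp2b3 had 316, 321 and 338 CPM in knockout and 398, 363 and 387 CPM in wild-type cerebellum, so every knockout library was below every wild-type library. The means were 325 ± 11.6 CPM in knockout and 383 ± 17.8 CPM in wild-type mice (SD, n = 3 each). The log2 fold change was -0.24 ± 0.05 (SE; 95% interval -0.35 to -0.13), with an unadjusted p = 0.00071 and an adjusted p of 0.406 in edgeR, the 31st smallest p of all genes tested. With DESeq2 it was called, at an adjusted p of 0.00770, and also with edgeR on all genes without a filter on low counts, at 0.00353. With the replicate number as a block the adjusted p was 0.077. Over all alternatives it ran from 0.00353 to 0.998, and the log2 fold change from -0.27 to -0.21. In the cerebellum 0.0113% of 17733 genes were called, 2 genes, and 36 genes with the replicate block.

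Marker sums of several cell types varied over the libraries behind the Atp2b3 values. Without the third knockout library, in which the choroid plexus markers were nearly missing, the log2 fold change of Atp2b3 was -0.26 (adjusted p = 0.107, edgeR). The remaining libraries still differed in the choroid plexus sum, at 973 and 1785 CPM in knockout and 1961, 2679 and 1056 CPM in wild-type cerebellum. The 11 Purkinje cell markers summed to 8392, 9496 and 10290.0 CPM in knockout and 9026, 8566 and 10530.0 CPM in wild-type cerebellum, with 5 of the 11 fold changes below 0 and no marker at 0. Set against that sum, Atp2b3 was 3.76, 3.38 and 3.29% in knockout and 4.41, 4.24 and 3.68% in wild-type cerebellum. On that scale the ranges overlapped, through the first knockout library (3.76%) and the third wild-type library (3.68%). Of 17733 genes, 2.08% were lower in knockout without overlap on it. This ratio was chosen after the values were seen, and Atp2b3 was not set against the other marker sums. Sums for 3 further cell types were higher in all knockout than in all wild-type cerebellum libraries, with no marker at 0. The 8 oligodendrocyte markers, 2 of them with a fold change below 0, summed to 6085 to 6706 CPM in knockout and 5590.0 to 5977 CPM in wild-type cerebellum. The 6 microglia markers, 1 of them below 0, summed to 118.5 to 129 CPM in knockout and 105 to 112 CPM in wild-type cerebellum. The 10 markers of endothelium and pericytes, 3 of them below 0, summed to 482 to 511 CPM in knockout and 467 to 476 CPM in wild-type cerebellum. The 8 brainstem markers summed to 30.2, 48.9 and 7.50 CPM in knockout and 14.96, 10.6 and 10.4 CPM in wild-type cerebellum, which overlapped. The 10 granule cell markers, 7 of them with a fold change below 0, summed to 6148, 5648 and 6757 CPM in knockout cerebellum. In wild-type cerebellum they summed to 6791, 6191 and 6678 CPM, and the ranges overlapped. The part of these cell types in the Atp2b3 value, or in those of the other members in the cerebellum, was not tested.

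The other cerebellar genotype differences were smaller or less even. Slc8a2 had 167, 153 and 181 CPM in knockout and 201, 182 and 182 CPM in wild-type cerebellum, with all knockout libraries below the wild-type ones. Its log2 fold change was -0.17 ± 0.06 (SE, unadjusted p = 0.0198, adjusted p = 0.691, edgeR). Slc8a3 had 43.0, 38.9 and 40.8 CPM in knockout and 42.9, 44.0 and 49.1 CPM in wild-type cerebellum, and the groups touched. Its log2 fold change was -0.15 ± 0.06 (unadjusted p = 0.0416, adjusted p = 0.723, edgeR). Slc8a1 averaged 20.6 ± 1.99 CPM in knockout and 24.7 ± 5.94 CPM in wild-type cerebellum, a log2 fold change of -0.26 ± 0.15 (adjusted p = 0.788, edgeR), and overlapped. Atp2a3 was the only 1 of the 10 with a higher mean in knockout cerebellum, at 322 ± 51.6 CPM against 295 ± 27.8 CPM in wild-type cerebellum, with a log2 fold change of 0.13 ± 0.10 (adjusted p = 0.860, edgeR).

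In the cerebellum, with the marker sums just given, the fold change was below 0 in 9 of 10 genes, against 49.0% of all genes, and the median was -0.11, against 0.00 over all genes. Unadjusted p-values under 0.05 were found in 3 of 10, against 6.77% of all genes, and knockout libraries were all below wild-type ones in 2 of 10, against 5.4%. The genes share libraries and are not independent, and the list was chosen with these data known, so no test is attached to these counts. Members called numbered 0 with edgeR, 1 with DESeq2 (Atp2b3), where 37 genes or 0.226% of 16356 were called, and 0 with limma-voom. Without the filter, where Atp2b3 was also called, 1.29% of 32360 genes were. The 95% intervals of the 10 genes ran from 0.662-fold (Slc8a1) to 1.28-fold (Atp2a3).

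Library by library, the cerebellar level of several members was set beside the Purkinje marker sum. The third wild-type and the third knockout libraries ranked first and second of 6 in the sum, and they were the highest pair in Atp2a3, Atp2a2, Atp2b2 and also Slc24a2, a gene lower in the cerebellum. The first knockout library was last of 6 in the sum and last in Atp2a3 and Atp2b3. In Atp2b3 the 3 highest were wild-type libraries. The order is not particular to the Purkinje sum. In the sum of 8 markers of astrocytes and Bergmann glia, the third wild-type library (3455 CPM) and the third knockout library (3307 CPM) were also the highest. Totals of these 6 libraries ran from 24355572 to 34971359 counts, and each was scaled by its own TMM factor. The orders are a description.

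**Figure D4:**
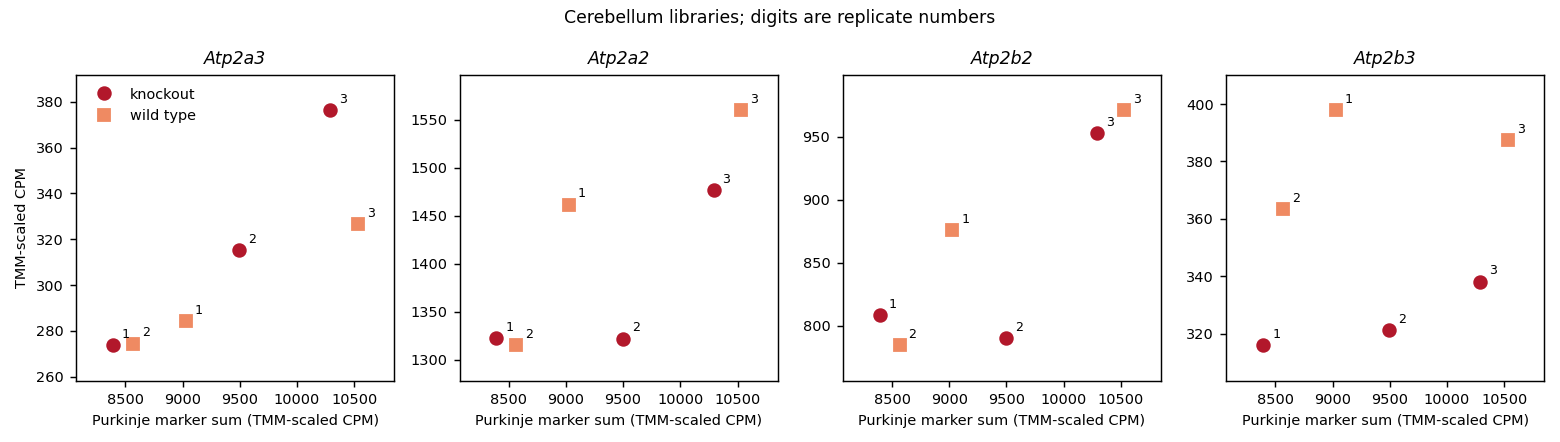
Level of Atp2a3, Atp2a2, Atp2b2 and Atp2b3 (TMM-scaled CPM) in the 6 cerebellum libraries against the summed CPM of 11 Purkinje cell markers, with knockout libraries as circles and wild-type libraries as squares. Axes do not start at 0. Atp2a3 spans 274 to 376 CPM, and Atp2b3 spans 316 to 338 CPM in knockout and 363 to 398 CPM in wild-type libraries.

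In the hippocampus the largest fold change between genotypes was that of the exchanger Slc8a1, again without passing the adjusted threshold. Its 3 knockout libraries lay within 45.7 to 46.7 CPM, against 50.9 to 60.8 CPM in the wild-type libraries, so the groups did not overlap. Across all genes 4.68% had knockout libraries all below wild-type ones. It ranked 11th by p among 17693 genes, with an unadjusted p = 0.000864 and an adjusted p of 0.995 in edgeR, and its fold was 0.817 (95% interval 0.740 to 0.903). Over the alternatives its adjusted p ran from 0.00651, with no filter on low counts, to 0.9998, and it was 0.354 with DESeq2. Without the filter 0.242% of 31868 genes were called. All 10 markers of endothelium and pericytes had fold changes below 0, and they summed to 358, 402 and 386 CPM in knockout and 414, 443 and 475 CPM in wild-type hippocampus, with none at 0. As a percentage of that sum, a ratio chosen after the values were seen, Slc8a1 was 12.9, 11.4 and 12.1 in knockout hippocampus. In wild-type hippocampus it was 14.1, 11.5 and 12.8, and the ranges overlapped. On this scale many genes shift upward in knockout: 36.1% of 17693 genes were higher in knockout without overlap, and 0.373% lower. Of 8 meningeal markers 7 had fold changes below 0, with sums of 63.0 to 78.8 CPM in knockout and 76.4 to 135 CPM in wild-type hippocampus. All 8 oligodendrocyte markers were below 0 too, with overlapping sums of 4490 to 6654 CPM in knockout and 4903 to 6560 CPM in wild-type hippocampus. So were all 3 smooth muscle markers tested. Of 8 astrocyte markers 3 were below 0, and of 6 microglia markers 4, against 49.2% of all genes. The part of any of these cell types in the Slc8a1 difference was not tested.

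Slc24a2 was the other gene with knockout libraries all below wild-type ones in the hippocampus, at 871, 904 and 907 CPM in knockout and 948, 938 and 984 CPM in wild-type mice. The means were 894 ± 20 CPM and 957 ± 24.2 CPM (SD, n = 3 each), and the log2 fold change was -0.10 ± 0.04 (SE, unadjusted p = 0.0272, adjusted p = 0.995, edgeR). The remaining 8 genes overlapped between genotypes, with log2 fold changes from -0.20 ± 0.14 (Atp2a3) to 0.02 (Slc8a2). None of the 10 was called with edgeR, DESeq2 or limma-voom, where 0.0% of 17693 genes were called in edgeR. Unadjusted p-values under 0.05 were found in 2 of 10, against 4.34% of all genes. Values were below 0 in 8 of 10, against 49.2% of all genes, but their median of -0.02 lay close to the 0.00 of all genes, and 7 of the 10 changed sign when a single library was left out. The 95% intervals ran from 0.709-fold (Atp2a3) to 1.20-fold (Slc8a3).

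**Figure D5:**
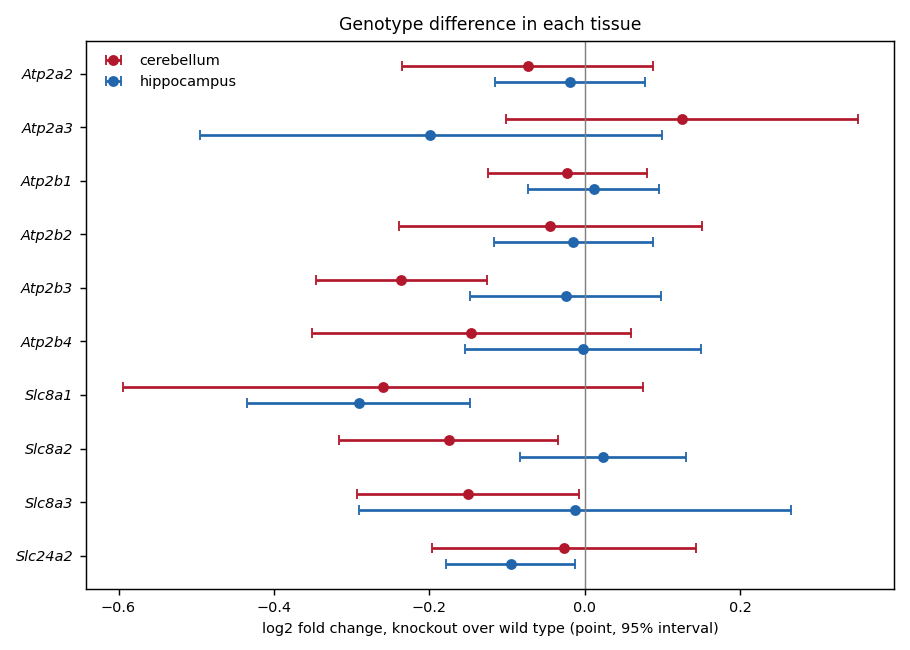
Log2 fold change of each gene, knockout over wild type, with its 95% interval, in the cerebellum and the hippocampus. In the cerebellum 9 of 10 points lie below 0, with Atp2b3 at -0.24, and in the hippocampus Slc8a1 lies at -0.29 while most others sit close to 0.

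Whether the genotype effect differed between tissues was tested by an interaction term over all 12 libraries. None of the 10 genes passed with edgeR, DESeq2 or limma-voom, against 0.0105% of 19027 genes in edgeR, and 2 of 10 had an unadjusted p under 0.05, against 5.34% of all genes. These were Atp2b3, with a difference of -0.21 ± 0.08 on the log2 scale (SE, cerebellum minus hippocampus, unadjusted p = 0.0214, adjusted p = 0.897, edgeR), and Slc8a2, with -0.20 ± 0.09 (unadjusted p = 0.0476, adjusted p = 0.919, edgeR). For Slc8a1 the difference was 0.03, with a 95% interval from -0.36 to 0.43, so the lower value in knockout hippocampus was not shown to belong to that tissue. Atp2b3 in the hippocampus was 229 ± 16.4 CPM in knockout and 233 ± 10 CPM in wild-type mice.

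The same families hold 8 further genes in the tables, of which Slc24a1 was too low to test, with 1 to 14 counts per library. No gene was called between genotypes in either tissue. The lowest p was that of Atp2a1 in the cerebellum, the skeletal muscle SERCA, at 10 to 16 counts per library in knockout and 17 to 40 counts in wild-type mice (log2 fold change -1.09, adjusted p = 0.644, edgeR). Between tissues, Atp2c1, a Golgi calcium and manganese pump, was lower in the cerebellum, at 130.1 ± 5.33 CPM in knockout and 130.3 ± 4.37 CPM in wild-type mice, against 212 ± 8.64 CPM in knockout and 201 ± 8.13 CPM in wild-type hippocampus. Slc24a4, an NCKX exchanger of olfactory neurons and enamel, had the largest difference of these, at 3.28 ± 0.533 CPM in knockout and 3.31 ± 0.642 CPM in wild-type cerebellum, against 41.1 ± 5.57 CPM in knockout and 41.6 ± 4.82 CPM in wild-type hippocampus. Its log2 fold change was -3.64 in both genotypes (adjusted p = 2.52e-08 in knockout and 5.21e-11 in wild-type mice, edgeR). Slc24a3, a further NCKX gene, was lower too, with log2 fold changes of -1.22 in knockout and -1.18 in wild-type mice. Slc24a5, the NCKX gene known from pigment cells, went the other way, at 11.5 ± 0.543 CPM in knockout and 13.9 ± 2.18 CPM in wild-type cerebellum, against 5.57 ± 0.33 CPM in knockout and 6.17 ± 1.17 CPM in wild-type hippocampus (log2 fold changes 1.04 and 1.17, adjusted p = 1.71e-05 and 1.76e-05, edgeR). Slc8b1, the mitochondrial sodium-calcium exchanger, was higher as well, with log2 fold changes of 0.68 in both genotypes (adjusted p = 0.000785 in knockout and 0.000245 in wild-type mice, edgeR). Atp2c2, the second Golgi pump gene, was lower, at 0.221 ± 0.108 CPM in knockout and 0.308 ± 0.138 CPM in wild-type cerebellum, against 2.22 ± 0.755 CPM in knockout and 2.26 ± 0.598 CPM in wild-type hippocampus. Of the 7 tested, 2 were called higher and 4 lower in the cerebellum of knockout mice, against 32.5% and 31.6% of all genes, and 3 higher and 4 lower in that of wild-type mice, against 33.0% and 33.1%.

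Genes that work with the pumps and exchangers were counted in lists chosen by function. In none of them was a gene called between genotypes in either tissue with edgeR. Of 9 sodium pump genes, which maintain the sodium gradient that the exchangers use, 6 were above and 3 below the hippocampus in the cerebellum of each genotype, all called. Of all genes, 64.1% were called in knockout mice, 32.5% higher and 31.6% lower. In wild-type mice 66.1% were called, 33.0% higher and 33.1% lower. Fxyd7, a brain regulator of the sodium pump, averaged 5.57 CPM in knockout and 3.96 CPM in wild-type cerebellum (log2 fold change 0.49 ± 0.18, adjusted p = 0.691, edgeR).

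Of 13 subunits and regulators of the pumps, 12 were found, and 10 of 12 tested in the cerebellum and all 9 tested in the hippocampus had genotype fold changes below 0, with medians of -0.04 in the cerebellum and -0.03 in the hippocampus. Of all genes, 49.0% were below 0 in the cerebellum and 49.2% in the hippocampus, with medians of 0.00. Genes of a list share libraries and are not independent, so no test is attached to this count or to those of the lists below. Basigin (Bsg), a membrane partner of PMCA pumps, had the smallest p of the list in both tissues, at 437 CPM in knockout and 476 CPM in wild-type cerebellum (log2 fold change -0.12 ± 0.05, adjusted p = 0.735, edgeR) and 304 CPM in knockout and 322 CPM in wild-type hippocampus. Neuroplastin (Nptn), the other such partner, averaged 454 CPM in knockout and 470 CPM in wild-type cerebellum. Of 14 genes of store-operated entry and of calcium storage in the endoplasmic reticulum, 6 were below 0 in the cerebellum and 8 in the hippocampus. Orai1, the pore of store-operated entry, averaged 7.17 CPM in knockout and 8.73 CPM in wild-type cerebellum, and Orai3 21.4 and 18.8 CPM (log2 fold changes -0.29 and 0.19, adjusted p = 0.691 and 0.711, edgeR). Of 10 genes of mitochondrial calcium uptake and exchange, 7 were below 0 in each tissue. Mcu, the pore of the uniporter, averaged 39.1 CPM in knockout and 41.3 CPM in wild-type cerebellum (adjusted p = 0.833, edgeR).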

How the data were processed

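Poly(A) RNA of 12 libraries was analysed. The authors deposited unscaled counts per gene in 1 table for each tissue. Trimmomatic 0.39, STAR 2.7.10, featureCounts 2.0.3 and mm10/GRCm38 are named in the submitters' processing notes. The sources used here do not name the annotation release or the strand setting used for counting. Exons of other genes cover at most 1.57% of any member's exons. Symbols and exon lengths came from GENCODE M21, in which 54409 of 54446 identifiers matched.

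The members and gene lists were chosen with earlier results of these data known. Named are all 10 members, all tested genes of the same families, and of each further list up to 3 genes with the smallest p in each genotype comparison. Values of some of these genes are not reported here.

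The quasi-likelihood test of edgeR 4.0.16 (R 4.3.3) was run on TMM-scaled counts after filterByExpr with its minimum count of 10 and minimum total of 15, with p-values adjusted over all genes (Benjamini-Hochberg, called under 0.05). Each tissue was fitted alone for genotype, each genotype alone for tissue, and all 12 libraries for the interaction. The biological coefficient of variation was 6.76 to 8.97%. SE is the size of the log2 fold change over the square root of F. The fits were also run on simulated counts with a common dispersion for all genes and changes put only into well-counted genes. That run does not probe the filter on low counts, and its outcome is not used here. No libraries of a group were identical.

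Both tissues came from the same animals, but the main tissue and interaction tests did not use this pairing. In the alternative called the replicate block, the animal was the block for these tests. In the cerebellum, deviations from group means of same-numbered knockout and wild-type libraries correlated across genes at 0.152, 0.263 and 0.339, all over 0.1. Same-numbered knockout and wild-type mice are different animals, and no label pairs them. The main genotype tests used no pairing, and the replicate number was a block in that alternative only. Alternatives were DESeq2 1.42.0, limma-voom (limma 3.58.1), DESeq2 size factors, no filter, the replicate block, a fit of all 12 libraries, and leaving out each library. For RPKM they were another transcript length and plain totals. Tables and figures used Python 3.11.15, pandas 2.3.3, numpy 2.4.6 and matplotlib 3.10.9.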

Additional observations from a re-analysis of the deposited data

How the results depend on the processing

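All 10 tissue differences kept their direction and their call in all 110 member values of each genotype, the replicate block included. The number of genes called between genotypes depended on the method. Without the filter on low counts it was 417 in the cerebellum, 77 in the hippocampus and 275 for the interaction, with 1 member called in each tissue (Atp2b3 and Slc8a1). With DESeq2 it was 37, 4 and 10, with 1 member called, in the cerebellum. The fit of all 12 libraries called 4 genes in the cerebellum. The replicate block called 36 genes in the cerebellum and 2 in the hippocampus, where same-numbered libraries correlated at -0.0137, 0.0407 and 0.171 and share only a number. The block changed no member's call. Leaving out 1 library gave 2 to 33 genes in the cerebellum (33 without the third knockout library, 4 without the third wild-type library), 0 to 2 in the hippocampus (2 without the third knockout library) and 2 to 44 for the interaction (44 without the third knockout cerebellum library, 4 without the first wild-type hippocampus library). The cause was not tested.

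Some values that were not called changed sign when 1 library was left out. In the cerebellum Atp2b2 ran from -0.131 to 0.0345 and Slc24a2 from -0.107 to 0.0677 (log2, knockout over wild type). In the hippocampus Atp2a2 ran from -0.0631 to 0.0181, Atp2b1 from -0.0161 to 0.0376, Atp2b2 from -0.0633 to 0.0242, Atp2b3 from -0.0620 to 0.0332, Atp2b4 from -0.0649 to 0.0717, Slc8a2 from -0.0345 to 0.0541 and Slc8a3 from -0.124 to 0.126. For the interaction Atp2a2 ran from -0.115 to 0.0068, Atp2b2 from -0.114 to 0.0536, Slc8a1 from -0.150 to 0.202 and Slc24a2 from -0.0117 to 0.167. Another transcript length moved 20 family shares by more than 1 SD.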

Other observations

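Casq2, a calcium-binding protein of calcium stores best known from heart muscle, averaged 33.6 CPM in knockout and 30.4 CPM in wild-type cerebellum, against 1.59 CPM in knockout and 1.45 CPM in wild-type hippocampus. Its log2 fold change was 4.39 in both genotypes (adjusted p = 3.24e-09 in knockout and 3.06e-09 in wild-type mice, edgeR). Mrln, picked after its values were seen, encodes a small membrane protein that inhibits SERCA in muscle. It averaged 2.39 CPM in knockout and 2.54 CPM in wild-type cerebellum, against 0.135 CPM in knockout and 0.0389 CPM in wild-type hippocampus. In a hippocampus library 3 counts equal 0.0983 to 0.120 plain CPM. The hippocampus means of Mrln thus rest on a few counts, and their genotype gap is not read.

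Set against the sum of 11 Purkinje cell markers, a ratio likewise chosen after its values were seen, Atp2a3 was 3.26, 3.32 and 3.66% in knockout and 3.15, 3.21 and 3.10% in wild-type cerebellum. On that scale all 3 knockout libraries were above all 3 wild-type libraries, as were those of 2.31% of 17733 genes. In CPM the same libraries overlapped.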
